A study of Mus musculus with 4 samples.

Results

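The T-box genes studied here are 9 genes of the family of DNA-binding transcription factors that share the T-box domain, measured in the mesenchyme of the developing mouse palate. They are Tbx1, Tbx2, Tbx3, Tbx4, Tbx5, Tbx15, Tbx18, Tbx20 and Tbx22, 9 of 21282 genes with a usable value, and they were taken by name. The set was selected on earlier results of the same embryos, including the difference between Foxf2-/- and control embryos. Their values in that contrast are therefore given as a description without a test.

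RNA was sequenced from 4 mouse embryos at E13.5, the stage before the palatal shelves lift above the tongue. All 4 carried 1 copy of the Osr2RFP knock-in, which places a red fluorescent protein under the control of Osr2, and RFP-positive palatal cells were sorted from each embryo. The Foxf2-/- group held 2 embryos (Foxf2-/- Osr2RFP/+), which lacked the forkhead transcription factor Foxf2 in every cell of the body. The control group held 1 Foxf2+/+ Osr2RFP/+ and 1 Foxf2+/- Osr2RFP/+ embryo, and since these were single embryos, nothing repeats the comparison of one control genotype with the other. The strain is given as a mixed background, and the controls were littermates. Osr2 is expressed more strongly on the oral than on the nasal side of the shelf, so the sorted cells are those with enough RFP and not the whole mesenchyme.

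T-box proteins bind DNA through the T-box and activate or repress nearby genes, some of them through the Groucho corepressors. In the embryo they are known for setting up regions of the heart, limbs, pharynx and face, and several members change limb or facial skeleton when mutated in people. Tbx22 is the gene of X-linked cleft palate with tongue-tie, and Tbx1, Tbx2 and Tbx3 are also needed for a normal mouse palate. Tbx15 acts in mesenchyme that forms cartilage and bone of the head, vertebrae and limb girdles.

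The genotypes were seen in the RNA. All sets of 4 values run in the order Foxf2+/+, Foxf2+/-, Foxf2-/- replicate 1 and Foxf2-/- replicate 2. Foxf2 stood at 85.4, 45.1, 1.41 and 2.28 FPKM (a level in sequenced fragments, divided by transcript length and by library size). Osr2, the gene of the reporter, was at 143, 144, 129 and 147 FPKM. The 8 fixed mesenchyme markers were all detected, and their summed level ran from 1141 to 1373 FPKM. All 5 endothelial and all 5 skeletal muscle markers had a mean below 1 FPKM, with Myog at 0 in all 4 embryos. The 5 blood markers summed to 20.5, 67.5, 66.5 and 148 FPKM, the 5 endothelial markers to 0.404, 0.608, 0.893 and 1.503, and the 7 epithelial markers to 7.34, 8.06, 7.93 and 8.998. The 5 muscle markers summed to 0.764, 0.803, 0.454 and 0.352, the 5 pericyte markers to 49.8, 46.2, 44.3 and 48.5, and the 4 glial and neuronal markers to 3.45, 5.21, 5.39 and 5.53. Relative to the Foxf2+/+ library the others were 1.19, 1.02 and 1.14 times as deep, and depth in reads is unknown.

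Sequences are shown for the features on which the transcript results turn, which are an optional exon of Tbx3 and the alternative starts of Tbx22. Tbx3 has 2 transcript entries with the same start and end (chr5:120120678-120134610, plus strand, mm9), and the longer holds an extra coding exon of 60 bases, or 20 codons, at chr5:120125252-120125311. It is coding exon 3 of 8 in that transcript, and the line below gives it in capitals with 20 intronic bases on each side in lower case (chr5:120125232-120125331).
Tbx3 optional exon: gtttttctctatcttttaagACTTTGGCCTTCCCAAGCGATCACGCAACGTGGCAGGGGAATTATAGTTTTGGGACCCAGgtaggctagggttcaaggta

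Tbx22 (chrX:104863303-104884319, plus strand) has 2 transcript entries, with an upstream and a downstream start at positions 104863303 and 104871851. The 100 bases before each are given because nearly all of the Tbx22 signal was assigned to the downstream one. They come from the RefSeq promoter table (GRCm38.p6) and match mm9 exactly at the positions chrX:104863203-104863302 and chrX:104871751-104871850. The promoter table also holds a further Tbx22 window downstream (chrX:104874104-104874353 in mm9), whose start has no transcript entry of its own here.
Tbx22 upstream start: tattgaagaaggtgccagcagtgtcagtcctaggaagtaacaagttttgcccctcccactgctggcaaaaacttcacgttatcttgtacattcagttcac
Tbx22 downstream start: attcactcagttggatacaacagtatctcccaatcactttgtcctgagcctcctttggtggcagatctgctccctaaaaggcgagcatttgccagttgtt

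The promoter table held 8 windows for 5 of the members, Tbx1, Tbx4, Tbx18, Tbx20 and Tbx22. The 250 bases before each start were searched on both strands for the forkhead motif GTAAACA and the T-box half-site AGGTGTG. Neither was in any of the 8 windows, while 3.17% and 5.10% of all 32851 windows held them. The absence of these letters says nothing about binding by either kind of factor.

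Tbx3, Tbx15, Tbx2 and Tbx22 were the T-box genes with a mean of at least 1 FPKM, the filter for testing, which 11128 genes passed. In the controls their order was Tbx3, Tbx2, Tbx15 and Tbx22, with no overlap between neighbours. In the Foxf2-/- embryos Tbx15 stood above Tbx2, and the other places in the order were the same. The other 5 members had means below 1 FPKM.

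**Figure D1:**
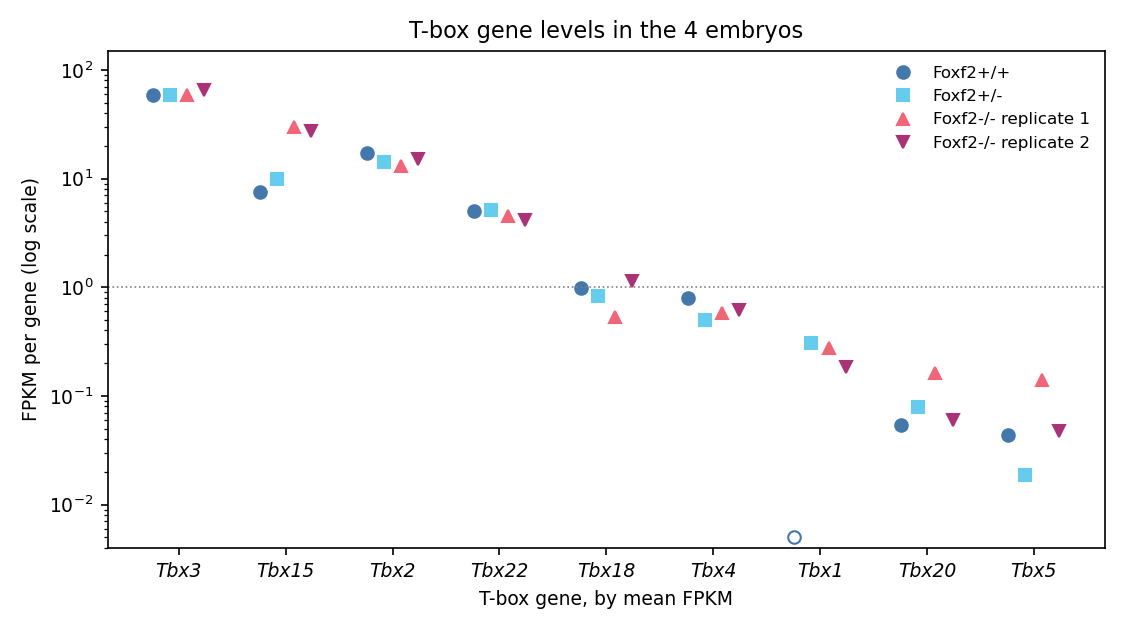
FPKM of each of the 9 T-box genes in each of the 4 embryos, on a logarithmic axis. Each point is 1 embryo, the dotted line marks 1 FPKM and the open circle at the lower edge stands for Tbx1 in the Foxf2+/+ embryo, which is listed at 0; the Tbx15 points of the Foxf2-/- embryos (30.0 and 27.4) lie above both controls (7.49 and 10.0).

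Tbx15 was the T-box gene with the largest difference between the groups among the 4 that passed the filter. Tbx15 (chr3:99057683-99158183, plus strand, 1 transcript entry) was at 7.49, 10.0, 30.0 and 27.4 FPKM. The groups did not overlap, and the lowest Foxf2-/- value lay above the highest control value. The control mean was 8.75 ± 1.78 and the Foxf2-/- mean 28.7 ± 1.87 (SD, n = 2 each), and the log2 fold change was 1.71 on the log2(FPKM + 0.1) scale, or 3.28-fold. Against the Foxf2+/+ embryo alone the ratio was 3.79-fold, and against the Foxf2+/- embryo alone 2.85-fold. The 2 Foxf2-/- embryos differed from each other by a log2 of -0.13 (replicate 2 minus replicate 1). The Foxf2+/- embryo was 1.33-fold above the Foxf2+/+ embryo, so the values were ordered by the number of null alleles, with 1 embryo behind each of the control values.

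The mean read depth over the Tbx15 transcript, which is not scaled for library size, was 10.2, 16.1, 41.7 and 42.4. At its control level Tbx15 ranked at percentile 56.6 of the genes tested. The summed endothelial markers also lay higher in both Foxf2-/- embryos, at levels under 2 FPKM in total. Cdh5, Kdr and Emcn (0, 0.346, 0.450 and 0.812 FPKM) did so singly, while Pecam1 and Tek overlapped between the groups. Of the pericyte markers, Kcnj8 (0.0638, 0.0540, 0.146 and 0.721 FPKM) lay higher in both, and Rgs5, Cspg4 and Pdgfrb overlapped. Abcc9 (0.256, 0.473, 0.352 and 1.65 FPKM) overlapped too, with a Foxf2-/- mean past 1.5-fold from both controls. The summed blood markers were lowest in the Foxf2+/+ and highest in the second Foxf2-/- embryo. The summed glial and neuronal markers lay higher in both Foxf2-/- embryos (5.39 and 5.53 against 3.45 and 5.21 FPKM), and the summed muscle markers lower (0.454 and 0.352 against 0.764 and 0.803). The part of these markers in the Tbx15 values was not tested. More cells with Tbx15 RNA and more RNA per cell cannot be told apart in bulk samples, and the same holds for fewer or less.

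Tbx3 and Tbx2, closely related repressors that act in limb, mammary gland and heart, were both above 10 FPKM in all 4 embryos. Tbx3 was at 58.3, 58.1, 58.5 and 64.8 FPKM. Both Foxf2-/- values lay just above the controls, with means of 58.2 ± 0.144 and 61.7 ± 4.44 (SD, n = 2 each) and a log2 fold change of 0.08, and the difference of the means is below the SD of the Foxf2-/- group. Tbx2 (chr11:85646117-85655450, plus strand) was at 17.0, 14.2, 13.1 and 15.2 FPKM. Its groups overlapped, with means of 15.6 ± 2.00 and 14.1 ± 1.48 and a log2 fold change of -0.14.

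Tbx22 was at 5.05, 5.08, 4.56 and 4.13 FPKM. Both Foxf2-/- values lay below both controls, with means of 5.07 ± 0.0209 and 4.35 ± 0.308 (SD, n = 2 each). The log2 fold change of -0.22 is short of the 1.5-fold used as a limit.

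**Figure D2:**
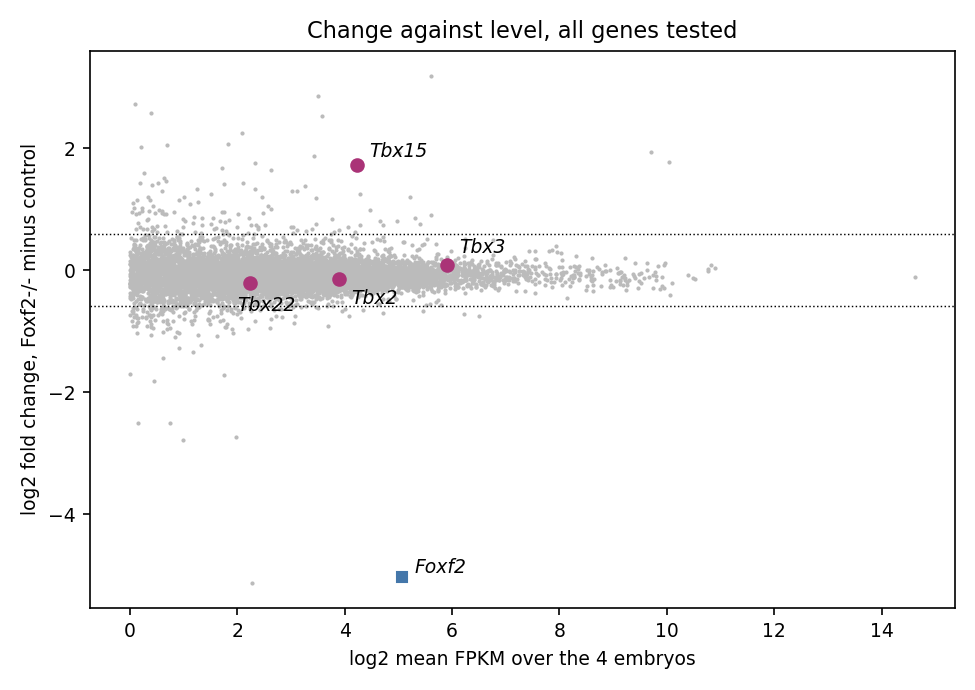
Log2 fold change (Foxf2-/- minus control, on log2(FPKM + 0.1)) against log2 mean FPKM for the 11128 genes tested. Grey points are genes, purple points the 4 T-box genes that passed the filter, the blue square Foxf2 and the dotted lines 1.5-fold; Tbx15 (1.71) lies above the upper line and Tbx2, Tbx3 and Tbx22 lie between the lines.

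The 9 genes together summed to 89.8, 89.2, 107.9 and 113.5 FPKM. Tbx15 made up 8.34%, 11.2%, 27.8% and 24.1% of this sum. The share of Tbx3 was 65.0%, 65.2%, 54.3% and 57.1%, and that of Tbx2 was 19.0%, 15.9%, 12.1% and 13.4%. Tbx3 remained the largest share in all 4 embryos. The ratio of Tbx15 to Tbx2 was 0.440, 0.704, 2.29 and 1.80, below 1 in both controls and above 1 in both Foxf2-/- embryos.

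The 5 members below 1 FPKM included the heart and limb genes. Tbx18, a relative of Tbx15 and Tbx22 that acts in the vertebral column and the ureter, was at 0.974, 0.831, 0.532 and 1.14 FPKM (chr9:87597635-87626095, minus strand). Its Foxf2-/- values lay on either side of the controls. Tbx4, a gene of the hindlimb and lung, was at 0.791, 0.503, 0.584 and 0.623 FPKM (chr11:85703565-85729599, plus strand), and its groups overlapped.

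Tbx1, the gene of the pharyngeal arches lost in the 22q11 deletion, was listed at 0 in the Foxf2+/+ embryo and at 0.306, 0.277 and 0.185 FPKM in the others (chr16:18581806-18587062, minus strand). It pointed in opposite directions against the 2 controls. Tbx5, a gene of the heart and forelimb, was at 0.0441, 0.0187, 0.139 and 0.0473 FPKM (chr5:120284672-120335227, plus strand). Tbx20, a heart gene, was at 0.0536, 0.0790, 0.163 and 0.0602 FPKM (chr9:24525256-24578747, minus strand). The mean read depth of Tbx5 was between 0.0301 and 0.193, below 1 read per base in every embryo. In the controls the range of Tbx1 spanned those of Tbx20 and Tbx5, which did not overlap each other, and in the Foxf2-/- embryos those of Tbx18 and Tbx4, and of Tbx20 and Tbx5, overlapped.

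Counted together, 1 of the 9 members, Tbx15, lay more than 1.5-fold from both controls in the same direction, compared with 1.37% of the genes tested in either direction and 0.71% higher in the Foxf2-/- embryos. The groups did not overlap for 4 of the 9 (Tbx3, Tbx5 and Tbx15 higher, Tbx22 lower), compared with 45.7% of the genes tested. These shares are over genes that passed the filter, and of the 4 members that passed it 1 lay past 1.5-fold and 3 (Tbx3, Tbx15 and Tbx22) did not overlap. The members were chosen on this contrast, so nothing is read from these shares and no call is given for a member.

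Transcript entries of the same gene differed between embryos in Tbx3. The entry with the 60-base exon shown earlier was at 8.47, 5.24, 2.21 and 1.88 FPKM, which is 14.5%, 9.02%, 3.78% and 2.90% of the gene. Both Foxf2-/- values lay below both controls, with a log2 fold change of -1.66. The Foxf2-/- mean was 4.01-fold lower than the Foxf2+/+ embryo and 2.50-fold lower than the Foxf2+/- embryo. The entry without the exon was at 49.9, 52.9, 56.3 and 62.9 FPKM, with a log2 fold change of 0.21. The 2 entries divide the signal of the gene, whose sum differed little (log2 fold change 0.08). A lower share of 1 entry therefore goes with a higher share of the other, and the opposite signs are not separate differences.

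The entries differ in length by these 60 bases, and the share of each is a program's estimate from reads over the exon and its junctions, which the files do not give separately. Of the 3986 tested entries from genes with several entries, 11.9% lay past 1.5-fold from both controls and 8.5% lay past it on the lower side. Of the members, 3 such entries were tested, both of Tbx3 and the downstream one of Tbx22, and 1 lay past it. As background, the protein made from the longer transcript carries the extra residues inside the T-box.

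**Figure D3:**
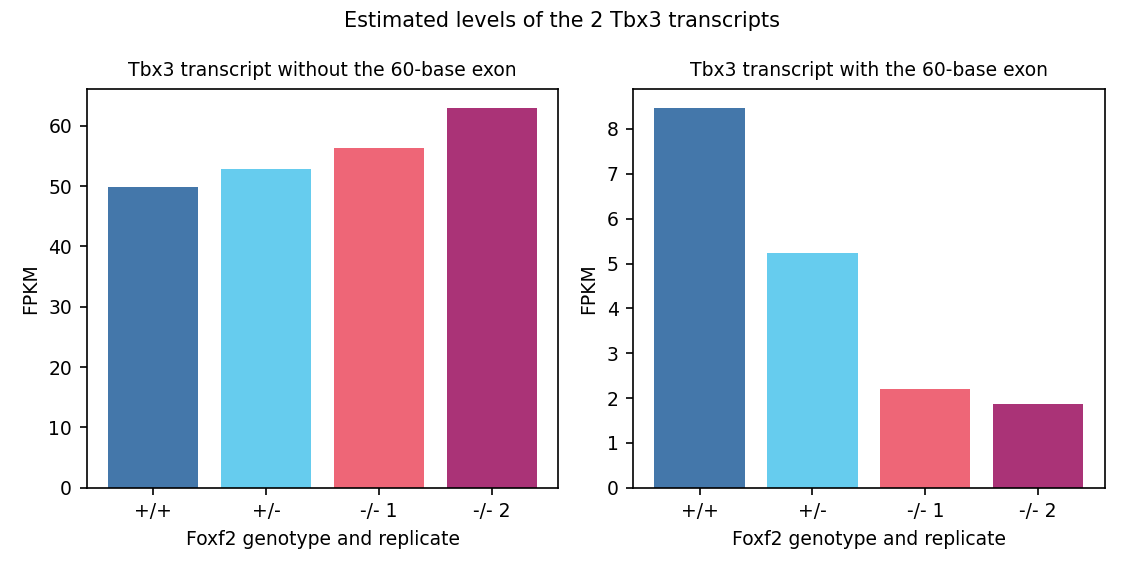
FPKM of the 2 Tbx3 transcript entries in the 4 embryos, without (left) and with (right) the 60-base exon, on separate axes that start at 0. Each bar is 1 embryo, so there are no error bars; on the right the bars fall from 8.47 in the Foxf2+/+ embryo to 1.88 in the second Foxf2-/- embryo, and on the left they run from 49.9 to 62.9.

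In Tbx22 the same start led in every embryo. The entry from the downstream start was at 4.82, 4.83, 4.25 and 4.13 FPKM, between 93.2% and 100% of the gene. The entry from the upstream start was at 0.239, 0.253, 0.309 and 0.000209 FPKM, with 1 Foxf2-/- embryo above and 1 below the controls. Of Tbx4, the entry from the downstream start held between 70.1% and 100% of the gene, at 0.555, 0.503, 0.542 and 0.622 FPKM.

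Some members lie side by side. Tbx2 and Tbx4 are 48114 bases apart on chromosome 11, and Tbx3 and Tbx5 are 150061 bases apart on chromosome 5. Within each pair the levels were far apart, with Tbx2 at 14.2 to 17.0 FPKM in the controls and Tbx4 at 0.503 to 0.791. Within 500 kb of the members lie 45 other genes, of which 29 were tested. None of the 29 was past 1.5-fold from both controls. limma with Benjamini-Hochberg adjustment called 0 of the 29 and 7 of all genes tested, or 0.0629%. Beside Tbx15, Wars2, a mitochondrial tRNA synthetase gene, was at 2.72, 2.38, 2.78 and 2.19 FPKM (adjusted p = 0.937). Hsd3b6, a steroid dehydrogenase gene, was at 1.08, 5.83, 5.26 and 12.6 FPKM (adjusted p = 0.373), the same order of embryos as the summed blood markers, whose part in it was not tested.

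The genes whose values over the 4 embryos lay closest to those of Tbx15 were Corin, Lrrtm4, Kirrel3, Bnc1 and Elfn1. Closeness is the Euclidean distance between log2(FPKM + 0.1) profiles centred on their own mean, over 11127 genes and 4 embryos. Corin, a membrane protease gene, was the closest at a distance of 0.251, with 2.19, 2.35, 7.82 and 7.92 FPKM. Bnc1, a zinc finger gene, stood at 0.411 with 0.998, 1.68, 5.92 and 5.63 FPKM. The others were at 0.387 (Lrrtm4), 0.410 (Kirrel3) and 0.417 (Elfn1), and the median gene was at 1.84. A gene with equal values in all 4 embryos would lie at 1.74, so closeness mostly restates a shared difference between the groups. Points in such profiles share the 4 libraries.

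Genes that work with T-box factors were taken as 6 lists with 56 genes in all, of which 34 were tested. limma called 0 of the 34, compared with 0.0629% of all genes tested. At so low a share, a count of 0 here or in a single list is not read as a lack of change. An unadjusted p under 0.05 was found for 9 of the 34, a larger share than the 13.1% of all genes tested. Past 1.5-fold from both controls lay 3 of the 34, also a larger share than the 1.37% of all genes tested. Of these, Emx2 and Dll1 passed the filter of 1 FPKM only through the group where they were higher. The lists were chosen with earlier results of these data known, so nothing is read from these shares. The median log2 fold change of the 34 was -0.08, the same to 2 decimals as that of all genes tested.

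Of 8 other T-box genes, 1 passed the filter. This was Mga, which joins a T-box to a Max-binding domain, at 12.8, 11.4, 11.5 and 10.4 FPKM (adjusted p = 0.604). T, Tbr1, Eomes, Tbx6 and Tbx10 had means below 1 FPKM, and Tbx19 and Tbx21 were listed at 0 in every embryo. Of the 6 genes of the Groucho family all were tested and none was called, with a median log2 fold change of 0.10 and a lowest adjusted p of 0.448. The most abundant were Aes (17.2, 14.6, 17.3 and 19.1 FPKM) and Tle3 (14.8, 16.3, 15.4 and 16.8 FPKM).

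Of 8 heart partners of T-box proteins, 1 passed the filter, the muscle and neural crest factor gene Mef2c at 4.25, 3.62, 4.43 and 5.39 FPKM (adjusted p = 0.424). The other 7 lay below 1 FPKM, among them Nkx2-5 and Hand1, both listed at 0 throughout. Hand2 was listed at 0 in both controls and at 0.0797 and 0.0354 FPKM in the Foxf2-/- embryos.

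All 11 palate genes were tested and limma called 0, with 4 at an unadjusted p under 0.05, compared with 13.1% of all genes tested. These 4 were named after their values were seen. Pax9, a gene needed for palate and teeth, was at 81.2, 100.1, 127 and 127 FPKM (log2 fold change 0.50, adjusted p = 0.192). Shox2, a homeobox gene of the anterior palate, was at 114, 73.4, 47.7 and 63.7 FPKM (log2 fold change -0.73, adjusted p = 0.288). Meox2 was at 41.0, 33.9, 28.7 and 28.5 FPKM (adjusted p = 0.279), and the growth factor gene Fgf10 at 6.55, 5.15, 4.73 and 3.63 FPKM (adjusted p = 0.333). In each of the 4 the groups did not overlap, as in 45.7% of all genes tested. Pax9 was higher and the others lower in the Foxf2-/- embryos, and none of the 4 passed the adjusted test. Since the 4 were picked by p on the same values, the lack of overlap adds no support. The most abundant were Barx1, a homeobox gene of facial mesenchyme, at 217, 200, 201 and 239 FPKM (adjusted p = 0.813), and Osr2 (adjusted p = 0.833). None lay past 1.5-fold from both controls.

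Among 10 genes of head and shoulder mesenchyme, 9 were tested, 0 were called and 2 lay past 1.5-fold from both controls, in opposite directions. Of all genes tested, 1.37% lay past it. Emx2, a homeobox gene needed for the scapula, was at 0.478, 1.29, 1.67 and 2.66 FPKM (log2 fold change 1.30, SE 0.419, adjusted p = 0.304). Its control mean of 0.883 FPKM was below the filter of 1 FPKM. Gsc, the goosecoid homeobox gene of the jaw and ear, was at 4.30, 4.81, 2.32 and 2.33 FPKM (log2 fold change -0.94, SE 0.135, adjusted p = 0.0926). In Gsc the 2 Foxf2-/- embryos were nearly equal and below both controls, and the adjusted p is above the limit of 0.05. The most abundant of the list was Prrx1, a homeobox gene of limb and facial mesenchyme (140, 127, 116 and 123 FPKM, adjusted p = 0.495).

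Of 13 genes known as targets of T-box proteins, 6 were tested and 0 were called. Dll1, a Notch ligand gene, was at 1.98, 1.21, 0.346 and 0.480 FPKM (log2 fold change -1.70, SE 0.335, adjusted p = 0.168), past 1.5-fold from both controls. Its Foxf2-/- mean of 0.413 FPKM was below the filter of 1 FPKM. The most abundant was Ncam1, a cell adhesion gene (30.7, 26.4, 25.2 and 25.5 FPKM, adjusted p = 0.511). Below the filter, the gap junction gene Gja5 (0, 0.00873, 0.0198 and 0.297 FPKM) and the epithelial cadherin gene Cdh1, also an epithelial marker (0.255, 0.231, 0.331 and 0.715 FPKM) were higher in both Foxf2-/- embryos.

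**Figure D4:**
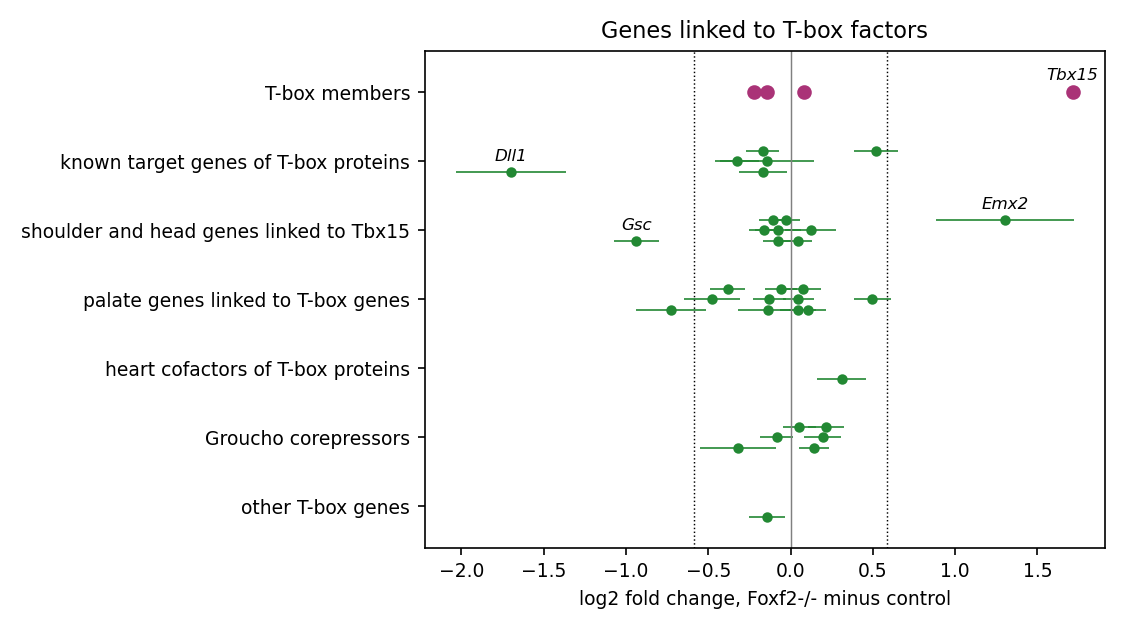
Log2 fold change (Foxf2-/- minus control) of the tested genes of the 6 lists (green, bars are the limma SE) and of the 4 T-box genes that passed the filter (purple, no error given). Dotted lines mark 1.5-fold; Dll1 (-1.70), Gsc (-0.94) and Emx2 (1.30) are named as past it from both controls, and limma called none of them.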

How the data were processed

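RFP-positive palatal cells of 4 E13.5 embryos were sequenced singly. The authors aligned single-end Illumina reads (Nextera libraries) to mm9 with Tophat and Bowtie, of which the submitters' processing notes give version 0.12.7 for Bowtie. They deposited 1 table per embryo in the form Cufflinks writes, with 28107 RefSeq transcript entries. The deposited FPKM are estimates per transcript, and the deposited coverage is a signal, the mean read depth over a transcript, not scaled for library size. For the program behind the FPKM, neither version nor settings are given in the sources used here. Depth in reads is unknown, so no counting interval is given.

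Entries of at least 200 bases were summed by symbol, leaving out 10 genes whose estimate had failed in at least 1 embryo. Genes with a mean of at least 1 FPKM were tested as log2(FPKM + 0.1) with limma 3.58.1 (R 4.3.3, variance trend, Foxf2-/- against control). Calls needed a Benjamini-Hochberg adjusted p under 0.05 and over 1.5-fold. All adjusted p-values are over all genes tested. A second criterion needed over 1.5-fold from each control in the same direction. The p-values are for the difference between the groups. They set it against the spread within groups of 2 embryos, which limma draws towards a trend over all genes. In the control group that spread is between 1 Foxf2+/+ and 1 Foxf2+/- embryo, so genotype and embryo cannot be told apart in it. The limma script was tested on simulated data. Other steps used pandas 2.3.3 and numpy 2.4.6 (Python 3.11.15).

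The members and lists were chosen with earlier results of these data known. Named were every member, the listed genes called or past 1.5-fold from both controls, the 2 most abundant genes of each list, Foxf2, and the 5 genes nearest to Tbx15, except for items that are not reported here. Wars2 and Hsd3b6, the tested neighbours of Tbx15, were named after their values were seen. The same holds for the single endothelial and pericyte markers and for the 4 palate genes with an unadjusted p under 0.05. In all, 12 alternative settings were tried.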

Additional observations from a re-analysis of the deposited data

How the results depend on the processing

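The log2 fold change of Tbx15 stayed between 1.51 and 1.92 and past 1.5-fold in every setting tried, including those without 1 embryo. Tbx3 and Tbx5 were also positive and Tbx2 and Tbx22 negative throughout, while Tbx1, Tbx4, Tbx18 and Tbx20 changed sign in at least 1 setting. With median-ratio scaling the log2 fold change was -0.14 for Tbx22 and -0.06 for Tbx2. The median over the genes tested was then -0.0014, compared with -0.08 in the main setting. The number of members past 1.5-fold (1) became 2, with Tbx5, at a pseudocount of 0.01, and ranged from 1 to 2 when 1 embryo was left out. It was 2 without the Foxf2+/+ embryo or the second Foxf2-/- embryo (Tbx5 added) and without the Foxf2+/- embryo (Tbx1 added). The number of members whose groups do not overlap (4) was 3 with median-ratio scaling. It ranged from 5 to 8 when 1 embryo was left out, where fewer values have to be apart. With 1 control left out, the criterion uses the other control alone.

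The number of genes called by limma (7) was 26 with entries of any length, 2 without the variance trend, 13 with median-ratio scaling, 0 without a filter on low values, 13 with a pseudocount of 1 and 1 with the most abundant entry per gene. It ranged from 7 to 38 when 1 embryo was left out, with 38 without the Foxf2+/- embryo. Of the 7 main calls, 3 were also called with entries of any length and 1 without the variance trend. With the most abundant entry per gene 0 of them were called, and with median-ratio scaling or a pseudocount of 1 all 7 were. The number past 1.5-fold from both controls (153) was 47 with a filter of at least 5 FPKM in 1 embryo, 280 with entries of any length, 638 without a filter, 65 with a pseudocount of 1 and 274 with the most abundant entry. Without 1 embryo it ranged from 210 to 566. limma called 0 of the listed genes in every setting. The causes of these differences were not tested. With 1 embryo left out, the lone embryo of its group is assumed to vary like the others.

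No paired analysis was possible because the control embryos carry no replicate numbers in the labels (numbers given to them here only name them). Values below 1 FPKM rest on few reads, and 2 embryos per group, with different control genotypes, limit every comparison.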
